A study of Mus musculus with 18 samples.

Results

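The 34 mouse genes described here encode proteins that repair DNA interstrand crosslinks or carry out homologous recombination: the Fanconi anemia proteins, BRCA1, BRCA2 and their partners, accessory and motor proteins of recombination, the damage kinases, the nucleases that cut at a crosslink, the translesion polymerases and the alkyl transferase MGMT. They were taken by gene symbol, and all 34 were found among the 23284 genes of the deposited tables. RNA was measured in tumors grown under the skin of the flanks of male mice, labelled as 12 weeks old, that were left untreated or were given metronomic cyclophosphamide (CPA), a prodrug activated in the liver, by intraperitoneal injection at 140 mg/kg. Tumors of 3 established mouse lines, GL261 glioma, LLC Lewis lung carcinoma and B16F10 melanoma, were grown in C57BL/6 mice (B6; strain label C57BL/BNTac) and treated every 6 days (CPA/6d). GL261 was also grown in ICR scid mice, which lack functional B and T cells but retain natural killer cells and macrophages, and treated every 6 or every 9 days (CPA/6d or CPA/9d). Tumors were collected 6 days after the last dose, which was the second for GL261 and the third for LLC and B16F10, so effects of line and of dose number cannot be told apart. The titles of the LLC and B16F10 tables give the dose as 150 mg/kg. Each tumor type rests on 1 cell line, and each of the 9 groups on 2 RNA pools of 9 and 10 tumors (both GL261(B6) groups), 5 and 5 (both LLC groups and untreated B16F10), 4 and 3 (CPA/6d B16F10), 6 and 6 (untreated GL261(scid)), 9 and 9 (CPA/6d GL261(scid)) or 12 and 12 (CPA/9d GL261(scid)).

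An interstrand crosslink ties both strands of DNA together and blocks the replication fork. The Fanconi anemia core complex attaches ubiquitin to the FANCD2 and FANCI proteins, structure-specific nucleases then unhook the crosslink, translesion polymerases copy past the remnant, and homologous recombination with the sister chromatid repairs the broken strand. Activated CPA forms such crosslinks, and many genes of this pathway are transcribed most in the S and G2 phases of the cell cycle, so their RNA is commonly higher in dividing tissue.

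The 18 libraries held 6169217 to 15979644 reads counted over genes, so that 3 reads, the most a count of 0 allows, corresponded to 0.180 to 0.452 CPM, in which reads are scaled to a common total per library. CPM are used below as levels, and the pools of a group are given in the order of the pool with more reads and the pool with fewer reads. A change is the log2 ratio of normalized reads plus 1, with its standard error (SE), tested by limma on the 4 pools compared. A gene was called where it changed over 2-fold at an unadjusted p under 0.001, and it is said to have risen or fallen where the p adjusted by Benjamini and Hochberg over all genes tested was under 0.05. Because each library was made from a pool of tumors, these p-values rest on the spread between pools and not between tumors. With 2 pools per group, limma draws the variance of each gene toward a trend over all genes, so they do not measure that gene's own spread alone. B6 and scid libraries were made with different kits, so levels were compared within a host and the hosts by their responses.

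Markers of the tissue of origin were checked in each line. Summed melanocyte markers were 22325 and 24077 CPM in untreated B16F10, and summed glial markers were 2328 and 2263 CPM in untreated GL261(B6), and the 8 lung epithelium markers 298 and 266 CPM in untreated LLC, against 1.67 and 1.39 CPM in untreated B16F10 and 147 and 199 CPM in untreated GL261(B6). Nearly all of the LLC sum was the general epithelial keratin gene Krt8, at 297 and 265 CPM, while the lung factor Nkx2-1 was at 1.4 and 1.55 CPM and the surfactant genes Sftpa1, Sftpc and Sftpd had 0 reads in both untreated LLC pools. In untreated GL261(scid), made with another kit, the sum was 1339 and 1247 CPM. The 2 lung markers tested between untreated GL261(B6) and untreated LLC differed by 6.71 and -1.10 on the log2 scale. The lung set thus does not mark LLC. Markers of other cells moved with treatment. All 9 leukocyte markers tested were called higher with CPA/6d in GL261(B6), where 17.9% of all genes were called higher and 5.96% lower. The sum of the 10 listed went from 367 and 369 to 2342 and 2610.2 CPM. Only 8 were tested in the comparisons of untreated GL261(B6) with the other lines. Treated pools alone thus brought some marker past the minimum of 10 reads in 2 libraries, so counts of marker calls are a description. In GL261(scid) 8 of 8 tested were called higher with CPA/6d and 7 of 7 with CPA/9d, in B16F10 3 of 6, with a sum of 96.1 and 71.4 CPM before and 262 and 322 CPM after, and in LLC 0 of 6, of which 3 fell at an adjusted p under 0.05, with 376 and 429.6 CPM untreated and 321 and 323 CPM treated. In the same order, 18.9%, 20.7%, 6.09% and 2.01% of all genes were called higher, and 13.2% fell in LLC. Fibroblast markers summed to 3729 and 4236 CPM in untreated GL261(B6) and 11618 and 12342 CPM after CPA/6d, with 6 of 6 called higher, and 6 of 8 glial markers were called lower there, with sums of 2328 and 2263 CPM before and 966 and 887 CPM after. In LLC, 5 of 6 endothelial markers were called lower, against 0.89% of all genes. In whole tumors, fewer cells of a type and less RNA per cell cannot be told apart, and the part of these other cells in the changes below was not tested.

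RNA of the crosslink and recombination repair genes fell in GL261 and B16F10 tumors treated with CPA and did not fall as a group in LLC. In GL261(B6), 9 of the 34 members were called lower and 1, Mgmt, was called higher, where 5.96% and 17.9% of all genes tested were called in these directions. In B16F10, 12 of the 33 members tested were called lower and 0 higher, against 3.17% and 6.09% of all genes. GL261(scid) showed 11 members called lower and 1 higher with CPA/6d, against 8.09% and 18.9%, and 17 lower and 1 higher with CPA/9d, against 10.1% and 20.7%. Mgmt was the gene called higher in each GL261 response, and since it reached the minimum of 10 reads in 2 libraries only through its treated pools, that call is not counted as a result. In LLC, limma called 0 of 33 members in either direction, against 0.89% lower and 2.01% higher of all genes, and at an unadjusted p under 0.05 there were 5 members higher and 2 lower. The corresponding count in B16F10 was 0 higher and 23 lower. Here and below, the share of all genes at an unadjusted p under 0.05 alone was not computed, so these counts are not set against it.

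At an adjusted p under 0.05 with no limit on the fold, 25 members fell and 1 rose in GL261(B6), where 34.7% of all genes fell and 35.9% rose. In B16F10, 21 fell and 0 rose, against 22.2% and 22.9%. In LLC, 1 fell and 3 rose, against 13.2% and 14.5%. In GL261(scid), 26 fell and 2 rose with CPA/6d, against 38.3% and 38.3%, and 28 fell and 4 rose with CPA/9d, against 38.6% and 38.9%. The median change of the members was -0.62 in GL261(B6), 0.08 in LLC, -0.76 in B16F10, -0.76 in GL261(scid) with CPA/6d and -1.0 with CPA/9d on the log2 scale, while the median of all genes tested lay between -0.01 and 0.01 in each. Both treated pools were below both untreated pools for 28 of 34 members in GL261(B6), 27 of 33 in B16F10 and 27 and 29 of 34 in the GL261(scid) responses, against 46.1%, 34%, 45.2% and 45.1% of all genes tested. They were above both untreated pools for 2, 2, 4 and 4 members, against 40.3%, 40.8%, 43.5% and 44.3%. In LLC both treated pools were lower for 6 and higher for 14 of 33 members, against 31.3% and 32.6% of all genes.

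Of the calls, 4 genes were called lower in all responses but that of LLC: Fanci, Rad51c, Chek1 and Usp1. The same held for 0.892% of all genes tested in these 4 responses. A further 16 were called lower in at least 1 response, and 13 members were called in none. For these counts the share over all genes was not computed. The GL261(scid) responses share their untreated pools, so their values are not independent of each other. The count of members called lower was sensitive to single pools: it was 4 rather than 9 in GL261(B6) without the CPA/6d pool with fewer reads, and 7 rather than 12 in B16F10 without the untreated pool with more reads or without the CPA/6d pool with fewer reads.

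**Figure D1:**
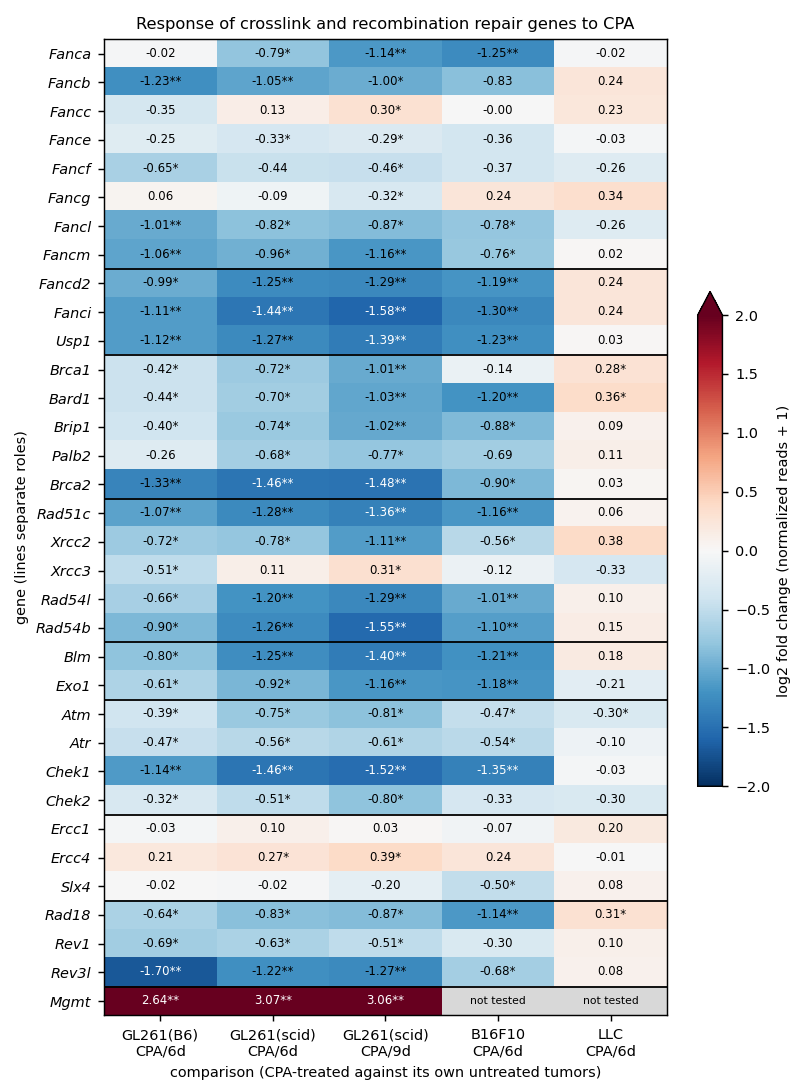
Log2 change of each of the 34 genes with CPA in the 5 responses (columns), grouped by role, printed in each cell and colored from blue (lower) to red (higher); 2 asterisks mark called genes, 1 asterisk an adjusted p under 0.05 alone. The columns of GL261(B6), B16F10 and GL261(scid) are mostly on the lower side, with medians of -0.62, -0.76, -0.76 and -1.0, and the LLC column lies near 0 with a median of 0.08.

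The ubiquitinated pair FANCD2 and FANCI and the deubiquitinase that reverses the modification, USP1, fell together. All 3 genes fell in both B6 lines other than LLC and under both scid schedules. In LLC they changed by 0.24, 0.24 and 0.03, none of them at an adjusted p under 0.05. Usp1 RNA was at 192.96 and 174 CPM in untreated GL261(B6) and 82.2 and 79 CPM after CPA/6d, a change of -1.12 ± 0.070 (SE, n = 2 pools per group; limma, adjusted p = 6.8e-08). In B16F10 it was at 198 and 186 CPM before and 89.5 and 80.3 CPM after (-1.23 ± 0.10, adjusted p = 5.2e-05), and in LLC at 102 and 102 CPM untreated and 109 and 100.97 CPM treated. Treated and untreated pools were thus far apart in GL261 and B16F10 and overlapped in LLC. GL261(scid) had 157 and 156 CPM untreated, 62.5 and 65.5 with CPA/6d and 55.4 and 62.9 with CPA/9d, changes of -1.27 ± 0.050 and -1.39 ± 0.067.

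Fanci went from 49.6 and 45.1 to 22.7 and 19.1 CPM in GL261(B6) (-1.11 ± 0.11, adjusted p = 4.4e-06), from 53 and 51.9 to 23.1 and 21 CPM in B16F10 (-1.30 ± 0.12), and in GL261(scid) from 36.5 and 35.9 to 12.8 and 13.5 CPM with CPA/6d (-1.44 ± 0.085) and 11.7 and 12.1 CPM with CPA/9d (-1.58 ± 0.092). In LLC it stood at 16.3 and 19.1 CPM untreated and 20.2 and 22 CPM treated, so that both treated pools were the higher ones there. Fancd2, the partner of Fanci, followed with 53.1 and 45.1 to 28.2 and 19.7 CPM in GL261(B6), which missed the call by its fold (-0.99 ± 0.15, adjusted p = 1.2e-04), 69.4 and 58.6 to 28.7 and 29.2 CPM in B16F10 (-1.19 ± 0.12), and 53 and 48.9 to 20.3 and 22 CPM and 19.7 and 21.3 CPM in GL261(scid) (-1.25 ± 0.077 and -1.29 ± 0.083). Without the CPA/6d pool with fewer reads, the change of Fanci in GL261(B6) was -0.95 and no longer called. In the scid libraries, which the labels call unstranded, 14.8% of the Fanci exon bases and 3.24% of those of Fancd2 overlap a gene on the other strand.

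In the core complex, whose FANCL subunit carries the ubiquitin ligase activity and whose FANCM subunit anchors the complex to DNA, the members divided in GL261(B6). Fancb, Fancl and Fancm were called lower in GL261(B6), while Fanca, Fancc, Fance and Fancg did not pass the test there. Fancb, which forms a subcomplex with Fancl, was at 19.4 and 19.7 CPM in untreated GL261(B6) and 7.79 and 7.99 CPM after treatment (-1.23 ± 0.15, adjusted p = 1.9e-05), and at 11.7 and 12.5 CPM in untreated GL261(scid) against 5.7 and 5.74 CPM and 5.24 and 6.77 CPM with CPA/6d and CPA/9d (-1.05 ± 0.14 and -1.0 ± 0.16). In the other B6 lines it was at 5.11 and 3.34 CPM before and 3.1 and 1.78 CPM after in B16F10 (-0.83 ± 0.38, adjusted p = 0.1) and at 8.31 and 9.15 CPM untreated and 10.8 and 9.92 CPM treated in LLC. Its GL261 pools were separated by treatment without overlap, and those of LLC lay on the opposite side. Fancm fell from 44.1 and 40.3 to 20.9 and 17.7 CPM in GL261(B6) (-1.06 ± 0.12), from 34.8 and 28 to 19.6 and 18.5 CPM in B16F10 (-0.76 ± 0.15) and from 38.6 and 34.9 to 18.5 and 18.8 CPM and 16.9 and 15.4 CPM in GL261(scid) (-0.96 ± 0.082 and -1.16 ± 0.095). Fancl fell from 16.8 and 16.6 to 8.52 and 7.26 CPM in GL261(B6) (-1.01 ± 0.16). Without the CPA/6d pool with fewer reads the changes of Fancm and Fancl in GL261(B6) were -0.91 and -0.86 and neither was called, that of Fancl also missed the 2-fold limit with a pseudocount of 5, and the CPA/6d call of Fancb in GL261(scid) was lost without the treated pool with more reads (-0.99).

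Fanca, which encodes a core subunit bound by the product of Fancg, behaved differently by line. In B16F10 it was at 59.5 and 54 CPM untreated and 23.1 and 26.2 CPM after CPA/6d (-1.25 ± 0.12, adjusted p = 1.3e-04), whereas in GL261(B6) it was at 23 and 21.6 CPM before and 19.4 and 22.8 CPM after (-0.02 ± 0.13, 95% interval -0.30 to 0.26) and in LLC at 184 and 170.3 CPM untreated and 180.3 and 171 CPM treated. The GL261(B6) and LLC pools overlapped between treatments and the B16F10 pools did not. In GL261(scid) it stood at 23.9 and 22.6 CPM untreated, 13.5 and 13 with CPA/6d (-0.79 ± 0.10) and 11.4 and 9.39 with CPA/9d (-1.14 ± 0.12), the last of which was called, though not without the CPA/9d pool with fewer reads (-0.95). In the unstranded scid libraries, 7.68% of the Fanca exon bases overlap a gene on the other strand. Fancc, Fance, Fancf and Fancg ranged from -0.65 (Fancf in GL261(B6)) to 0.34 (Fancg in LLC) over the 5 responses and were called in none. At an adjusted p under 0.05, Fance and Fancf fell in 2 responses each and Fancg in 1, and Fancc rose in 1. With CPA/9d in GL261(scid), 7 of the 8 core complex genes fell and 1 rose, against 38.6% and 38.9% of all genes.

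Among the BRCA partners, Brca2, a central mediator of homologous recombination, was called lower in all GL261 responses. It was at 63.8 and 54.6 CPM in untreated GL261(B6) and 22.9 and 22 CPM after CPA/6d (-1.33 ± 0.10, adjusted p = 4.3e-07), and at 42.4 and 39.4 CPM in untreated GL261(scid) against 15 and 14.4 with CPA/6d and 15.4 and 13.5 with CPA/9d (-1.46 ± 0.083 and -1.48 ± 0.10). In B16F10 it fell by less than the 2-fold limit, from 44.1 and 40.5 to 23.1 and 23.8 CPM (-0.90 ± 0.12, adjusted p = 6.3e-04), and in LLC it was at 45.1 and 43.5 CPM untreated and 47.9 and 43.4 CPM treated. The LLC pools overlapped and all others were separated. Brca1, the ubiquitin ligase and scaffold of the pathway, moved less: 65 and 61.7 to 45.1 and 45.1 CPM in GL261(B6) (-0.42 ± 0.080, adjusted p = 6.0e-04), 200.1 and 206 to 181 and 201 CPM in B16F10 (-0.14 ± 0.093, adjusted p = 0.26) and 58.2 and 62.3 to 75.6 and 72 CPM in LLC, where it rose (0.28 ± 0.073, adjusted p = 0.017). In GL261(scid) it fell from 67.7 and 62.4 to 37 and 40.8 CPM with CPA/6d (-0.72 ± 0.070) and 32.7 and 31 CPM with CPA/9d (-1.01 ± 0.072), called only in the latter, where the call was lost without either CPA/9d pool or without the untreated pool with more reads (-0.92 to -1.08 over the pools left out).

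Bard1, the partner that BRCA1 needs as a ligase, was at 32.4 and 29.5 CPM in untreated B16F10 and 17.8 and 10.8 CPM after CPA/6d (-1.20 ± 0.23, adjusted p = 0.0032), at 45.5 and 41.8 CPM untreated and 30.3 and 31.2 CPM treated in GL261(B6) (-0.44 ± 0.10) and at 30.3 and 29 CPM untreated and 38.3 and 38.5 CPM treated in LLC, where both treated pools were the higher ones and the gene rose (0.36 ± 0.084, adjusted p = 0.011). In GL261(scid) it changed by -0.70 and -1.03 with CPA/6d and CPA/9d on the log2 scale. The 2 treated B16F10 pools of Bard1 differed more from each other than the untreated ones, and its call was lost without the treated pool with fewer reads (-0.82) and without either untreated pool. Brip1, a helicase bound by BRCA1, fell in GL261(B6), B16F10 and both GL261(scid) responses (-0.40, -0.88, -0.74 and -1.02) and was called in the last, as was Bard1. Both CPA/9d calls depended on a single treated pool, at -0.95 for Bard1 without the pool with more reads and -0.90 for Brip1 without the pool with fewer. Palb2, which bridges BRCA1 and BRCA2, was called in none (-0.77 to 0.11).

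**Figure D2:**
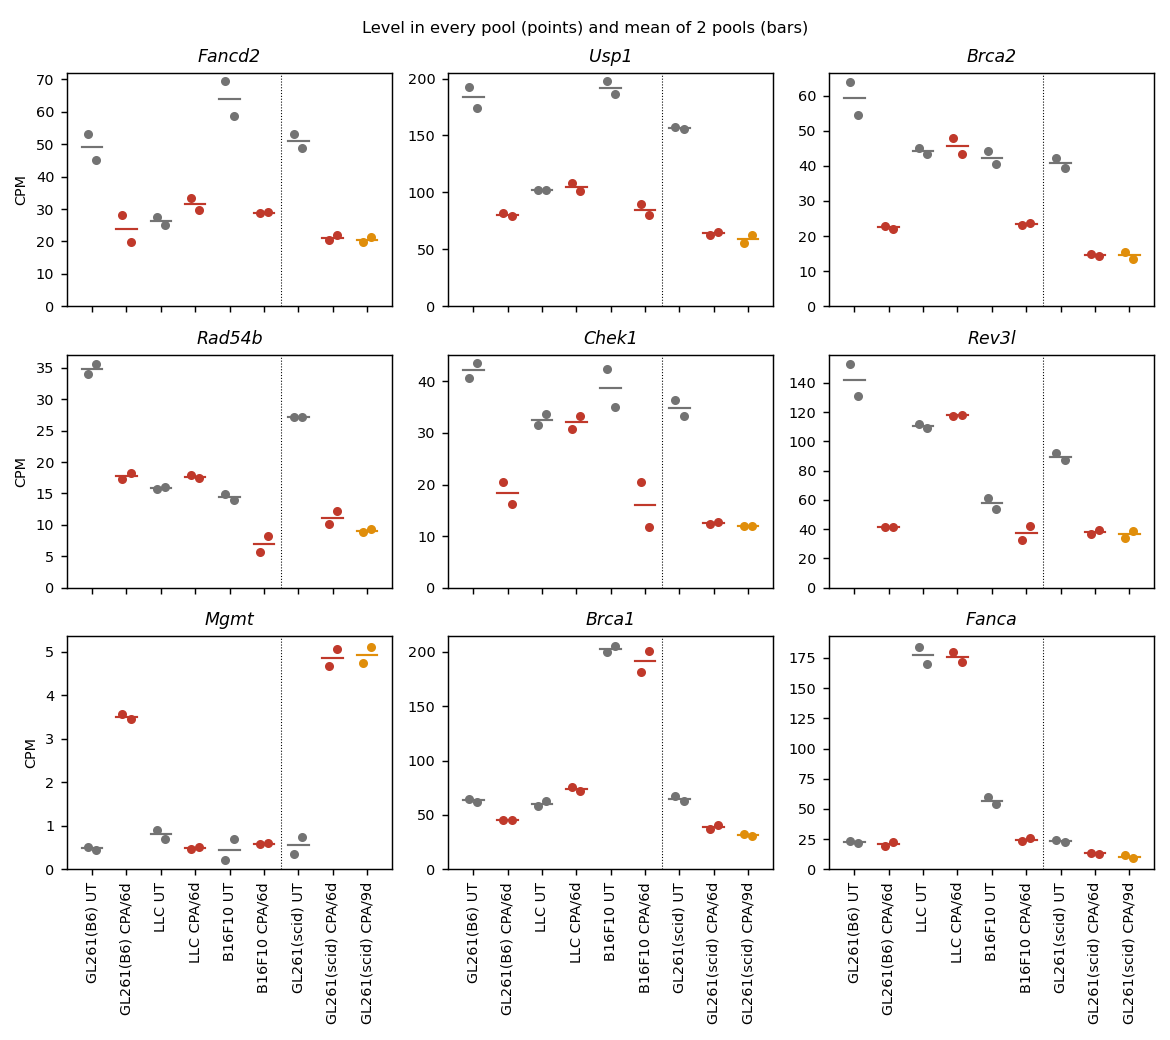
Level in CPM of 9 members in each of the 18 pools (points) with the mean of 2 pools (bars); untreated groups (UT) are gray, CPA/6d red and CPA/9d orange, and the dotted line separates B6 from scid libraries. In the Usp1 panel the treated GL261(B6) and B16F10 pools lie at 82.2 and 79 CPM and 89.5 and 80.3 CPM, below the untreated pools, while in LLC the pools at 102 and 102 CPM untreated and 109 and 100.97 CPM treated overlap.

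A further set of members encodes accessory and motor proteins that assist homologous recombination. Rad51c, an accessory protein, was called lower in GL261(B6), from 14.4 and 13.4 to 6.5 and 6.03 CPM (-1.07 ± 0.17, adjusted p = 1.8e-04), in B16F10, from 12.5 and 10.9 to 4.82 and 5.92 CPM (-1.16 ± 0.22, adjusted p = 0.0031), and in GL261(scid), from 15.8 and 13.3 to 6.44 and 5.32 CPM and 5.89 and 5.23 CPM (-1.28 ± 0.15 and -1.36 ± 0.15). The LLC pools, at 4.19 and 6.05 CPM untreated and 5.77 and 4.89 CPM treated, overlapped. Leaving out a pool lost its calls in GL261(B6) (-0.98 without the CPA/6d pool with fewer reads) and in B16F10 (without either untreated pool or the treated pool with more reads, -1.0 to -1.28 over the pools left out). Rad54l, a motor protein that moves along DNA, went from 30.7 and 28.2 to 17 and 18.4 CPM in GL261(B6) (-0.66 ± 0.12), from 16.1 and 17 to 9.52 and 7.4 CPM in B16F10 (-1.01 ± 0.20) and from 29.8 and 32.1 to 11.8 and 14.9 CPM and 12.5 and 12.5 CPM in GL261(scid) (-1.20 ± 0.12 and -1.29 ± 0.10). Its related motor Rad54b went from 34 and 35.6 to 17.3 and 18.3 CPM in GL261(B6) (-0.90 ± 0.11), from 14.9 and 13.9 to 5.74 and 8.29 CPM in B16F10 (-1.10 ± 0.22) and from 27.1 and 27.1 to 10.2 and 12.2 CPM and 8.8 and 9.39 CPM in GL261(scid) (-1.26 ± 0.11 and -1.55 ± 0.11). Both motors were called in B16F10 and GL261(scid) and not in GL261(B6). Without either untreated pool, or without 1 treated pool, both B16F10 calls were lost, with values from -1.18 to -0.81 for Rad54l and from -1.33 to -0.83 for Rad54b over the pools left out. The B16F10 call of Rad54l was also lost with a pseudocount of 5 and in 1 fit over all B6 libraries. The treated pool in question was that with fewer reads for Rad54l and that with more reads for Rad54b. The CPA/6d call of Rad54l in GL261(scid) was lost without the treated pool with more reads (-0.98), and 15.4% of its exon bases overlap a gene on the other strand.

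Xrcc2, another accessory protein, fell in GL261(B6), B16F10 and GL261(scid) (-0.72, -0.56, -0.78 and -1.11), and was called with CPA/9d alone, from 35.8 and 33.5 to 17.2 and 14.5 CPM, a call lost without the CPA/9d pool with fewer reads (-0.94). Xrcc3, the remaining accessory protein listed, fell in GL261(B6) (-0.51 ± 0.20, adjusted p = 0.042), changed by -0.12 ± 0.19 in B16F10 (95% interval -0.55 to 0.31) and rose with CPA/9d in GL261(scid) (0.31 ± 0.11, adjusted p = 0.021). The helicase Blm, which dissolves recombination intermediates, and the nuclease Exo1, which resects DNA ends, fell together in GL261 and B16F10. Blm was at 57 and 51.7 CPM in untreated GL261(B6) and 27.5 and 32.2 CPM after CPA/6d (-0.80 ± 0.11), at 50.3 and 44.3 CPM untreated and 22.5 and 19.7 CPM treated in B16F10 (-1.21 ± 0.14), and at 44.9 and 44.7 CPM in untreated GL261(scid) against 16.8 and 20.6 CPM and 17.7 and 15.8 CPM with CPA/6d and CPA/9d (-1.25 ± 0.10 and -1.40 ± 0.088). Exo1 was called in B16F10, from 45.1 and 35.4 to 21 and 15.8 CPM (-1.18 ± 0.18), and with CPA/9d, from 44 and 39.3 to 19.9 and 16.9 CPM (-1.16 ± 0.10), and both calls were lost without the treated pool with fewer reads (-0.95 and -1.0). In LLC, Blm and Exo1 changed by 0.18 and -0.21, neither at an adjusted p under 0.05.

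Of the damage kinases, only Chek1, which restrains entry into mitosis after replication stress, was called in any response. It was at 40.7 and 43.6 CPM in untreated GL261(B6) and 20.5 and 16.2 CPM after CPA/6d (-1.14 ± 0.13, adjusted p = 9.4e-06), at 42.3 and 35 CPM untreated and 20.5 and 11.7 CPM treated in B16F10 (-1.35 ± 0.25, adjusted p = 0.0026), and at 31.6 and 33.6 CPM untreated and 30.8 and 33.4 CPM treated in LLC. GL261(scid) had 36.4 and 33.4 CPM untreated, 12.3 and 12.8 with CPA/6d (-1.46 ± 0.090) and 12 and 11.9 with CPA/9d (-1.52 ± 0.10). The LLC pools overlapped, and in the other lines both treated pools were below both untreated pools. Leaving out the CPA/6d pool with fewer reads gave -0.93 in GL261(B6) and -0.93 in B16F10, and neither was then called, nor was that of B16F10 without the untreated pool with more reads. The upstream kinases Atm and Atr fell in every response except that of Atr in LLC, but by less than 2-fold: Atm changed by -0.39 in GL261(B6), -0.30 in LLC, -0.47 in B16F10, and -0.75 and -0.81 in GL261(scid), and Atr by -0.47, -0.10, -0.54, -0.56 and -0.61 in the same order. Chek2 ranged from -0.80 to -0.30.

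The incision nuclease genes showed little change. Ercc1 and Ercc4 encode the subunits of the XPF endonuclease and Slx4 the scaffold on which it works. Ercc4 was at 14.5 and 17.3 CPM in untreated GL261(B6) and 17.5 and 17.7 CPM after CPA/6d (0.21 ± 0.14, adjusted p = 0.2), at 32.1 and 29.8 CPM untreated and 37 and 38.9 CPM treated in B16F10 (0.24 ± 0.12) and at 18.4 and 17.4 CPM untreated against 22.8 and 20.2 CPM and 23.6 and 22.8 CPM in GL261(scid), where it rose with both schedules (0.27 ± 0.10 and 0.39 ± 0.094). Ercc1 changed by -0.03 ± 0.16, 0.20 ± 0.13, -0.07 ± 0.15, 0.10 ± 0.089 and 0.03 ± 0.10 in GL261(B6), LLC, B16F10 and GL261(scid) with CPA/6d and CPA/9d, none significant. Slx4 fell in B16F10 (-0.50 ± 0.15, adjusted p = 0.028) and in no other response.

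Among the translesion genes, Rev3l, the catalytic subunit of polymerase zeta, had the largest fall of all 34 members in GL261(B6). It was at 153 and 131 CPM untreated and 41.3 and 41.8 CPM after CPA/6d (-1.70 ± 0.084, adjusted p = 9.8e-09). In GL261(scid) it went from 91.9 and 87 CPM to 36.4 and 39.4 with CPA/6d (-1.22 ± 0.063) and 34.3 and 39.1 with CPA/9d (-1.27 ± 0.076), in B16F10 from 61.6 and 54 to 32.9 and 42.2 CPM (-0.68 ± 0.14, adjusted p = 0.0045), and in LLC from 112 and 109 to 117 and 118 CPM (0.08 ± 0.057, adjusted p = 0.31). The treated pools were the lower ones in GL261 and B16F10 and the higher ones in LLC. Rad18, which ubiquitinates PCNA to recruit these polymerases, was called in B16F10 alone, from 66.7 and 53.9 to 30.5 and 25.8 CPM (-1.14 ± 0.14), a call lost without the treated pool with fewer reads (-1.0), and it rose in LLC from 33.8 and 36.3 to 46.7 and 41.1 CPM (0.31 ± 0.092, adjusted p = 0.03). Rev1, a scaffold for the polymerases, fell in GL261(B6) and GL261(scid) (-0.69, -0.63 and -0.51) and changed by -0.30 in B16F10 (adjusted p = 0.073). Of the Rev1 exon bases, 29.1% overlap a gene on the other strand, a limit for the unstranded scid libraries.

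Mgmt, which removes alkyl groups from guanine without cutting the DNA, had more reads in the treated GL261 pools than in the untreated ones. It reached the read minimum only through those treated pools, so its levels are given as a description, and the changes below come from the fit with no minimum. In untreated GL261(B6) it had 4 and 3 reads, 0.514 and 0.452 CPM, and after CPA/6d 39 and 28 reads, 3.57 and 3.44 CPM (2.62 ± 0.40, adjusted p = 1.5e-04). Untreated GL261(scid) had 6 and 9 reads, 0.36 and 0.751 CPM, CPA/6d tumors 4.66 and 5.07 CPM (3.04 ± 0.36) and CPA/9d tumors 4.73 and 5.11 CPM (3.03 ± 0.37). Treated and untreated GL261 pools did not overlap. In LLC, with 0.908 and 0.704 CPM untreated and 0.467 and 0.515 CPM treated, and in B16F10, with 0.209 and 0.696 CPM untreated and 0.574 and 0.592 CPM treated, it did not reach the minimum. With the minimum in place Mgmt also had no value in GL261(B6) without either treated pool and in GL261(scid) without the treated pool with more reads. The summed leukocyte markers were also higher in the treated GL261 tumors, as given above, and their part in the difference of Mgmt was not tested.

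Beyond the members, 45 of 49 other listed crosslink and recombination genes were in the tables. Of these, 3, 0, 8, 11 and 14 were called lower and 0 higher in GL261(B6), LLC, B16F10 and GL261(scid) with CPA/6d and CPA/9d, with medians of -0.32, -0.07, -0.52, -0.52 and -0.62. In the same order, 5.96%, 0.89%, 3.17%, 8.09% and 10.1% of all genes were called lower and 17.9%, 2.01%, 6.09%, 18.9% and 20.7% higher. The 3 calls of 45 in GL261(B6) were thus near the share of all genes. At an adjusted p under 0.05, 23, 2, 27, 34 and 32 of them fell and 4, 6, 1, 3 and 4 rose. Of all genes, 34.7%, 13.2%, 22.2%, 38.3% and 38.6% fell and 35.9%, 14.5%, 22.9%, 38.3% and 38.9% rose. The DNA polymerase of microhomology end joining, Polq, was among those that led: it changed by -1.17 ± 0.11 in GL261(B6), -1.27 ± 0.18 in B16F10, -1.40 ± 0.078 and -1.70 ± 0.11 in GL261(scid), and rose in LLC (0.72 ± 0.14, adjusted p = 0.0041). Proliferation genes, a list of 22 such as Mki67, Top2a and the Mcm helicase genes, had medians of -0.84, 0.13, -1.21, -1.30 and -1.51 in the same order. All 22 fell in each GL261 response and in B16F10, and in LLC 9 rose and 1 fell. The summed level of the members went from 1467 and 1372 to 838 and 805 CPM in GL261(B6), from 1435 and 1333 to 906 and 886 CPM in B16F10 and from 1258 and 1224 to 1308 and 1265 CPM in LLC, and that of the proliferation genes from 4633 and 4222 to 2326 and 2241, from 5421 and 5106 to 2338 and 2197 and from 3564 and 3507 to 3970.3 and 3884 CPM. Targets of p53 were on the other side: 4 of 10 were called higher in GL261(B6), B16F10 and each GL261(scid) response and 1 of 10 in LLC, with the cell cycle inhibitor Cdkn1a at 1.67 ± 0.075 in GL261(B6), 0.66 ± 0.081 in LLC and 2.52 ± 0.090 in B16F10. What share of the members' change follows that in proliferation genes was not tested.

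**Figure D3:**
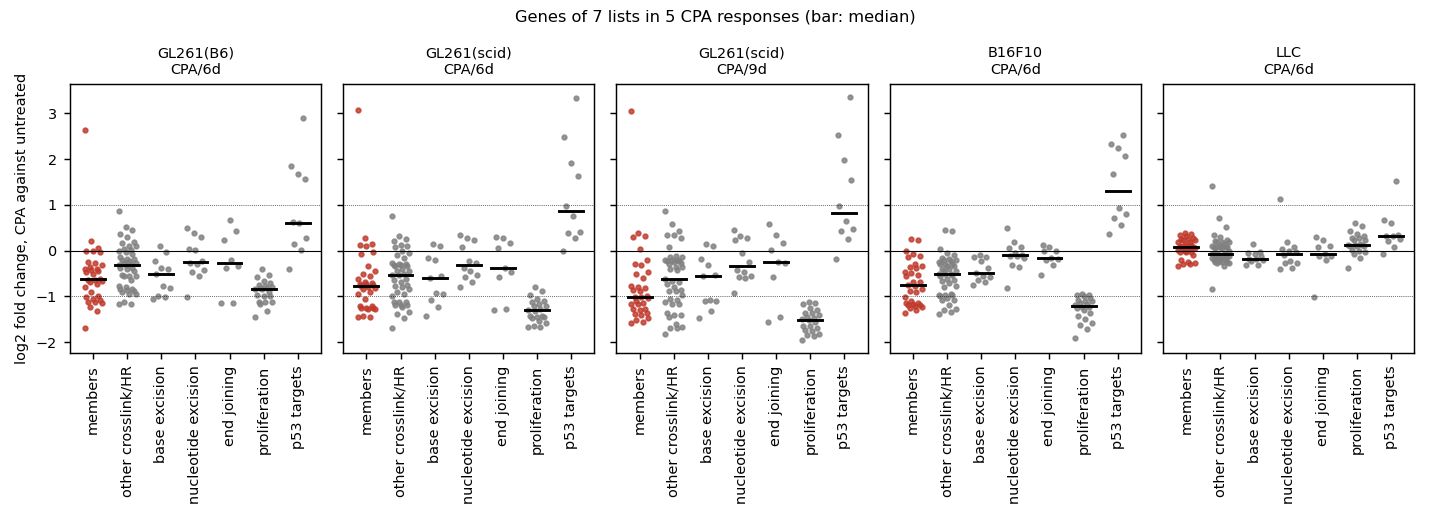
Log2 change with CPA of every tested gene of 7 lists in the 5 responses, with 1 point per gene, the members in red, a bar at the median and dotted lines at a 2-fold change. In GL261(B6) the medians are -0.62 for the members, -0.84 for proliferation genes and 0.61 for p53 targets, and in LLC 0.08, 0.13 and 0.32.

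The differences between the responses were tested directly. Between GL261(B6) and LLC, 10 of 34 members were called with a lower response in GL261(B6) and 1, Mgmt, with a higher one that only its treated GL261(B6) pools brought past the read minimum, where 4.95% and 13.3% of all genes were called. Between B16F10 and LLC, 8 of 33 were called lower in B16F10 and 0 higher by limma, against 3.79% and 4.7% of all genes called (23 members lower and 0 higher at an unadjusted p under 0.05). At an adjusted p under 0.05 these counts were 21 lower and 1 higher for GL261(B6) against LLC (26.9% and 29.3% of all genes) and 21 lower and 0 higher for B16F10 against LLC (19% and 16.7%). These comparisons share the LLC pools. Side by side, the differences from LLC were -1.20 ± 0.21 in GL261(B6) and -1.46 ± 0.15 in B16F10 for Fancd2, -1.33 ± 0.18 and -1.57 ± 0.18 for Fanci, and -1.11 ± 0.087 and -1.28 ± 0.11 for Usp1. Apart from Mgmt, the widest gap was that of Rev3l, -1.75 ± 0.10 between GL261(B6) and LLC (adjusted p = 3.0e-07). In B16F10 it was that of Bard1 (-1.59 ± 0.28, adjusted p = 0.0023), which rose in LLC and fell in B16F10. Single pools decided several of these calls. Without the CPA/6d GL261(B6) pool with fewer reads, Fancd2, Fancm, Xrcc2 and Chek1 were no longer called against LLC; Fancd2 and Fancm also lost the call without the untreated GL261(B6) pool with more reads, Fancd2 without the untreated and Fancm and Xrcc2 without the treated LLC pool with fewer reads, and Rad54b without the untreated GL261(B6) pool with fewer or the treated one with more reads. Against LLC, Rad54b also lost the call with a pseudocount of 5, and Fancb and Chek1 in 1 fit over all B6 libraries. With a pool left out, the values nearest to 0 were -0.93 for Fancd2, -0.92 for Fancm, -0.96 for Xrcc2, -0.89 for Chek1 and -0.94 for Rad54b. For B16F10 against LLC, Bard1 was not called without any 1 of the LLC or untreated B16F10 pools (-1.13 at the nearest to 0), nor was Rad54b, which also lost the call without the treated B16F10 pool with more reads (-0.94).

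Fewer members passed the test between the GL261(B6) and B16F10 responses. Limma called 1 member with a higher and 0 with a lower response in GL261(B6), where 7.01% and 3.91% of all genes were called, and at an unadjusted p under 0.05 there were 7 higher and 4 lower. The 1 called was Fanca (1.26 ± 0.17, adjusted p = 5.1e-04), flat in GL261(B6) and lower in B16F10 as given above. At an adjusted p under 0.05, 3 responses were higher and 1 was lower in GL261(B6), against 22.2% and 16.3% of all genes. The lower one was Rev3l (-1.0 ± 0.17, adjusted p = 0.0017), just short of 2-fold.

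**Figure D4:**
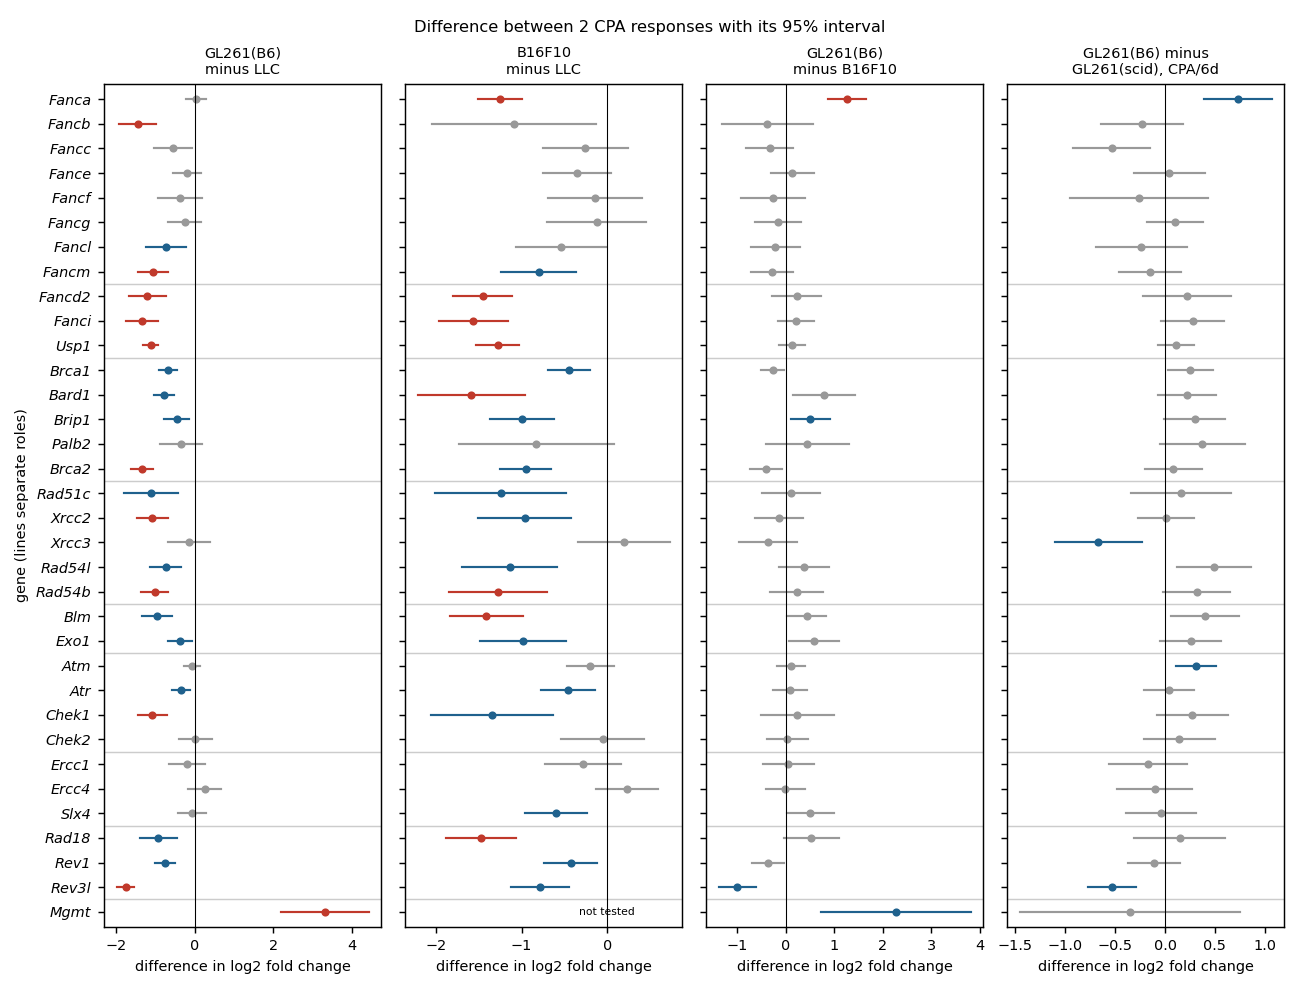
Difference in log2 response of each member between GL261(B6) and LLC, B16F10 and LLC, GL261(B6) and B16F10, and GL261(B6) and GL261(scid), with 95% intervals as lines; called differences are red, those at an adjusted p under 0.05 alone blue and the others gray. Rev3l lies at -1.75 in the first comparison, Bard1 at -1.59 in the second and Fanca at 1.26 in the third.

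Between hosts, few differences in the GL261 response to CPA/6d passed a test. For the difference of B6 and scid, limma called 0 members in either direction, against 1.08% of all genes called higher and 1.14% lower (5 members higher and 3 lower at an unadjusted p under 0.05). At an adjusted p under 0.05, 2 were higher and 2 lower in B6, against 9.36% and 5.91%: Fanca (0.73 ± 0.16) and Atm (0.31 ± 0.091) had the higher response in B6, and Rev3l (-0.53 ± 0.11) and Xrcc3 (-0.67 ± 0.20) the lower one. Host and library kit cannot be told apart in this comparison. Between schedules in scid mice, CPA/9d and CPA/6d tumors gave 0 members called in either direction by limma (0 higher and 7 lower at an unadjusted p under 0.05, none at an adjusted p under 0.05), where 0.779% of all genes were called higher and 0.0201% lower, and 4.71% and 1.99% were higher and lower at the adjusted p. The largest difference was that of Fanca, at 13.5 and 13 CPM with CPA/6d and 11.4 and 9.39 CPM with CPA/9d (-0.35 ± 0.14, 95% interval -0.65 to -0.06). The median over the members was -0.07, and that of proliferation genes was -0.25.

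Untreated tumors of the B6 mice already differed in these genes. Against LLC, GL261(B6) had 9 members called higher and 2 called lower of 33 tested, where 18.7% and 12.6% of all genes were called, and at an adjusted p under 0.05 20 were higher and 8 lower, against 38.9% and 36.4%. Against B16F10, GL261(B6) had 3 called higher and 2 lower (20.8% and 16% of all genes), and 13 and 8 at the adjusted p (39.5% and 38.4%). B16F10 against LLC had 3 called higher and 2 lower (18.3% and 18.2%), and 12 and 6 at the adjusted p (39% and 38.2%). The members' shares of calls were below those of all genes in both comparisons with B16F10 and above them only for genes higher in GL261(B6) than in LLC, and each line enters 2 of these comparisons.

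The widest gap was that of Fanca, at 184 and 170.3 CPM in LLC, 59.5 and 54 CPM in B16F10 and 23 and 21.6 CPM in GL261(B6), all pairs of lines apart beyond the spread of their pools (-2.96 ± 0.070 for GL261(B6) against LLC, adjusted p = 4.3e-08). Brca1 was high in B16F10 alone, at 200.1 and 206 CPM, with 65 and 61.7 CPM in GL261(B6) and 58.2 and 62.3 CPM in LLC, which overlapped (1.73 ± 0.076 for B16F10 against LLC, adjusted p = 7.4e-07). Fancb was highest in GL261(B6), at 19.4 and 19.7 CPM, against 8.31 and 9.15 CPM in LLC and 5.11 and 3.34 CPM in B16F10 (2.2 ± 0.23 for GL261(B6) against B16F10). A different line was highest for each of these 3 genes. In 1 fit over all B6 libraries Fancb was not called between GL261(B6) and LLC. Atr was highest in LLC, at 98.2 and 89.5 CPM against 47.4 and 43.7 CPM in GL261(B6) and 36.7 and 38 CPM in B16F10 (-1.02 ± 0.073 and, for B16F10 against LLC, -1.34 ± 0.084); without either GL261(B6) pool the first was not called (-0.89 at the nearest to 0). Rev3l and Atm were highest in GL261(B6), Atm at 146 and 134 CPM against 68.5 and 65.2 CPM in LLC and 75.2 and 73.8 CPM in B16F10. Xrcc2 (1.65), Rad51c (1.46), Fanci (1.44), Fancg (1.30), Rad54b (1.15), Rad54l (1.13) and Blm (1.09) were the others called higher in GL261(B6) than in LLC. The last 2 lost that call without the LLC pool with more reads (0.98 for Rad54l and 0.95 for Blm). Per kilobase of exon, Usp1 had the highest level of the members in each untreated group, with 49.1 CPM per kb in GL261(B6), 27.3 in LLC, 51.4 in B16F10 and 42 in GL261(scid), and Mgmt the lowest, with 0.591, 0.985 (beside Fancc at 0.987), 0.553 and 0.679.

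**Figure D5:**
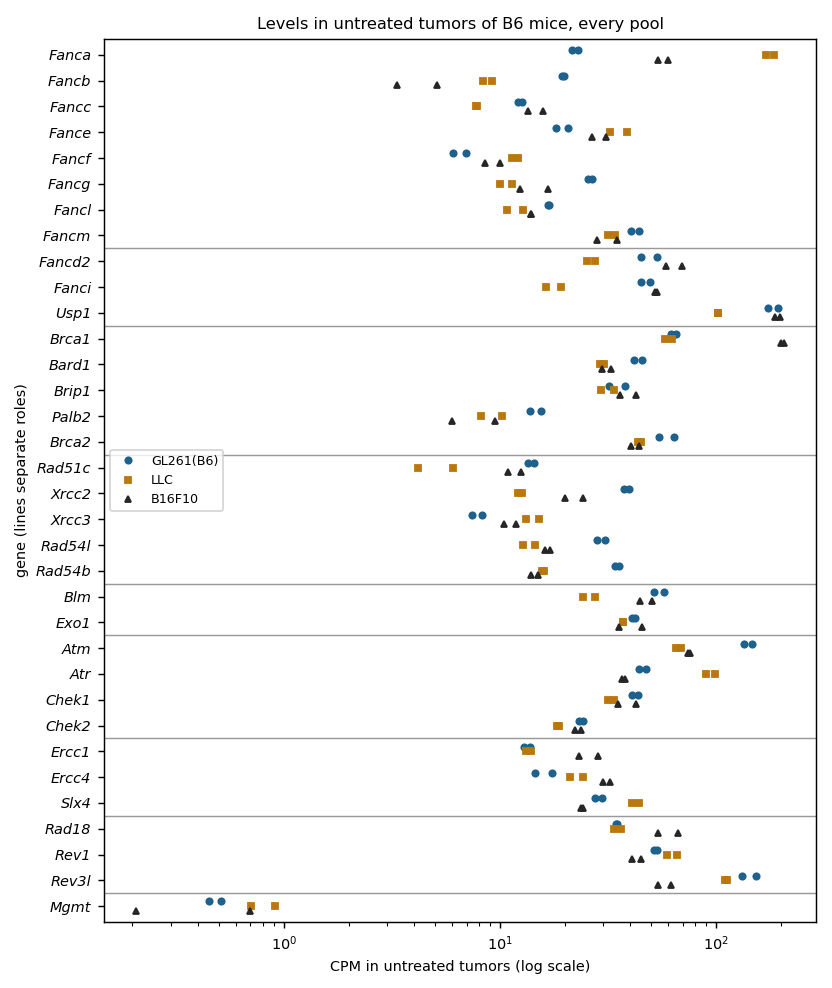
Level in CPM (log axis) of each member in the 2 untreated pools of GL261(B6), LLC and B16F10, with 1 point per pool, GL261(B6) as circles, LLC as squares and B16F10 as triangles. Fanca spans from 23 and 21.6 CPM in GL261(B6) to 184 and 170.3 CPM in LLC, and Brca1 lies at 200.1 and 206 CPM in B16F10 above both other lines.

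Because proliferation genes fell in the same tumors, the DNA around the start of each member was searched for the letters bound by E2F factors, which switch on genes for S phase. RefSeq windows of 300 bases (250 before to 50 after the start, GRCm38.p6 table) were matched for 28 of the 34 members. Windows were missing for Fancd2, Xrcc2, Rad54b, Exo1, Rev3l and Usp1, each of which was called lower in at least 1 response. On either strand, TTTGGCGC, TTTGCCGC, TTTCGCGC or TTTCCCGC occurred in 5 of the 28 (17.9%), and in 704 of the windows of 27025 genes (2.60%). CCAAT occurred in 16 of the 28 (57.1%) against 41.1% of all windows, and TTTGAA, the CHR element of late cell cycle genes, in 1 (3.57%) against 20.2%. A match in the letters is a description and shows neither binding nor a cause. The sites are shown 5′ to 3′ on the strand of the gene with the matched letters in capitals, at the positions where the window matched the mouse genome NCBIM37 exactly once, and they are given because they mark which of the genes above carry these letters:
Brca2 (chr5:151325017-151325046, plus strand): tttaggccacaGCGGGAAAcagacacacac
Bard1 (chr1:71149737-71149766, minus strand): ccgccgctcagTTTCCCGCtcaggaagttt
Rad51c, upstream annotated start (chr11:87218443-87218472, minus strand): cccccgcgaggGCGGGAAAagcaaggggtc
Rad51c, downstream annotated start (chr11:87217979-87218008, minus strand): gtttccagcgcTTTCGCGCctcttgctcta
Chek2 (chr5:111268839-111268868, plus strand): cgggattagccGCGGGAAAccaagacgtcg
Fancg (chr4:43023207-43023236, minus strand): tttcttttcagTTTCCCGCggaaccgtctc
Of the 5 genes with these letters, Brca2, Bard1 and Rad51c were called lower in at least 1 response, and Chek2 and Fancg in none. Of all 34 members, 20 were called lower in at least 1 response.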

How the data were processed

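Poly(A) RNA of tumors with an RNA integrity number over 7 was pooled, and 18 libraries were sequenced. Alignment to mouse mm9 was done by the authors in TopHat2 (2.0.13), and RefSeq genes were compared in DESeq. The 10 deposited tables give, for every gene, the mean signal of each of 2 groups, which the authors made as the mean over 2 pools of reads divided by a size factor. The authors' columns of ratios, fold changes and p-values were not used.

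The steps between the deposited signal values give both size factors of a group, so each mean was split into the whole reads of its 2 pools. The split does not show which pool number is which, so pools are named by their total reads. Reads were normalized by TMM (trims of 30% and 5%), filtered to genes reaching 10 reads (at median depth) in 2 libraries and 15 in total, and tested with limma 3.58.1 in R 4.3.3 with a trended prior variance on log2 of normalized reads plus 1. Each fit held the 4 libraries compared, or 8 for a difference of responses, which is an interaction term. Calls used a fold over 2 and an unadjusted p under 0.001, the limits of the study, with Benjamini-Hochberg adjustment across the genes of each comparison. CPM are on totals scaled by TMM over all 18 libraries. Limits from counts cover counting error only. The splitting and the test were checked on simulated data.

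B6 libraries were made with a strand-specific kit and scid libraries with another kit that the labels call unstranded while the protocol calls it strand-specific. Alternatives were another normalization (median of ratios), a pseudocount of 5, no filter, the adjusted p alone, 1 fit over all libraries of a kit and each pool left out. The members, lists and tests were chosen with earlier results of these data known. Values in every pool are given for up to about 20 of the members called in a response or between untreated lines, taken by the largest change, and other members by range; of other lists at most 4 genes with the largest change are named.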

Additional observations from a re-analysis of the deposited data

Results flagged for a closer look

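The interaction test flagged 15 members whose CPA/6d responses differed between tumor lines, at a fold over 2 and an unadjusted p under 0.001. They include Mgmt, whose difference is not counted as a result, for the reason given below. The count joins the comparisons listed next, and its share over all genes was not computed. Of all genes, 4.95% were called lower and 13.3% higher for GL261(B6) against LLC. These shares were 3.79% and 4.7% for B16F10 against LLC, and 3.91% and 7.01% for GL261(B6) against B16F10. Between GL261(B6) and LLC the difference in log2 response was -1.44 for Fancb, -1.20 for Fancd2, -1.33 for Fanci, -1.05 for Fancm, -1.33 for Brca2, -1.07 for Xrcc2, -1.01 for Rad54b, -1.07 for Chek1, -1.75 for Rev3l, 3.31 for Mgmt and -1.11 for Usp1. Between B16F10 and LLC it was -1.25 for Fanca, -1.46 for Fancd2, -1.57 for Fanci, -1.59 for Bard1, -1.27 for Rad54b, -1.48 for Rad18, -1.41 for Blm and -1.28 for Usp1. Between GL261(B6) and B16F10 it was 1.26 for Fanca. Mgmt had 13 and 5 reads in the untreated and 6 and 4 in the treated LLC pools and 4 and 3 in the untreated GL261(B6) pools, and passed the read minimum only through the 39 and 28 reads of the treated GL261(B6) pools, so its difference is a description; in the fit with no minimum it was 3.26 ± 0.55 (limma, adjusted p = 8.6e-04). GL261 tumors had received 2 injections and the other lines 3, which cannot be told apart from the line. Groups of 2 pools are too small to look for single outlying pools.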

How the results depend on the processing

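Of 93 calls of members in 13 comparisons, 87 remained under each of median-of-ratios normalization, a pseudocount of 5, no filter on low counts and 1 fit over all libraries of the kit, and 59 with every pool left out in turn. No called value changed sign under these alternatives. The difference between the GL261(B6) and B16F10 responses gave 2 members higher with a pseudocount of 5, and 1 lower with median-of-ratios normalization, without the filter or in 1 fit over all libraries. At an adjusted p under 0.05 with no limit on the fold, the members lower and higher numbered 25 and 1 in GL261(B6), 1 and 3 in LLC, 21 and 0 in B16F10, 26 and 2 with CPA/6d and 28 and 4 with CPA/9d in GL261(scid), 8 and 20 for untreated GL261(B6) against LLC, 8 and 13 against B16F10, 6 and 12 for untreated B16F10 against LLC, and, for differences of responses, 21 and 1 for GL261(B6) against LLC, 1 and 3 against B16F10, 21 and 0 for B16F10 against LLC and 2 and 2 between hosts; this rule has no fold limit, so it admits smaller changes. With each pool left out in turn, the members called lower ranged from 4 to 10 in GL261(B6) and 7 to 10 in B16F10, those called higher (Mgmt) from 0 to 1 in GL261(B6), in GL261(scid) with CPA/6d and CPA/9d and for GL261(B6) against LLC, those higher from 1 to 2 and lower from 0 to 1 for the responses of GL261(B6) against B16F10, higher from 3 to 5 for untreated B16F10 against LLC and GL261(B6) against B16F10, and lower from 1 to 3 for untreated GL261(B6) against LLC. Where a group is left with 1 pool, that pool is assumed to vary like the other group. Mgmt then fell under the read minimum; for the other counts the cause was not tested. No paired analysis was possible because the reads of the single pools carry no pool number. Depth limits Mgmt, whose untreated pools held 2 to 13 reads.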

Other observations

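Among repair genes outside the crosslink pathway, 12 nucleotide excision and 11 base excision genes were tested. Of both lists, limma called 0 in any difference of responses between the lines. Limma called 4.95% of all genes lower and 13.3% higher for GL261(B6) against LLC. The shares were 3.91% and 7.01% against B16F10, and 3.79% and 4.7% for B16F10 against LLC. At an unadjusted p under 0.05, 7 nucleotide and 6 base excision genes passed for GL261(B6) against LLC. These counts were 4 and 2 against B16F10 and 2 and 1 for B16F10 against LLC. The share of all genes at this unadjusted limit was not computed, so the counts show no excess. At an adjusted p under 0.05, 26.9% of all genes were lower and 29.3% higher for GL261(B6) against LLC. The shares at the adjusted p were 16.3% and 22.2% against B16F10, and 19% and 16.7% for B16F10 against LLC. The Ku genes Xrcc5 and Xrcc6, whose products bind broken ends for end joining, were the 2 of 8 tested end joining genes called lower in GL261(B6), at -1.13 ± 0.10 and -1.16 ± 0.093, and in GL261(scid) they were at -1.31 ± 0.066 and -1.27 ± 0.092 with CPA/6d and -1.44 ± 0.061 and -1.57 ± 0.11 with CPA/9d. In untreated GL261(B6) Xrcc5 stood at 82.1 and 80.7 CPM and after CPA/6d at 39.1 and 32 CPM. In B16F10 Xrcc5 was at 137 and 148 CPM before and 129 and 131 CPM after (-0.18 ± 0.095, limma adjusted p = 0.16), and Xrcc6 fell by less than 2-fold (-0.54 ± 0.10, adjusted p = 0.0036). Of 9 end joining genes tested in each, 1 fell in B16F10 and 1 fell and 2 rose in LLC at an adjusted p under 0.05. The response of Xrcc5 differed between GL261(B6) and B16F10 by -0.93 ± 0.14 (limma interaction, adjusted p = 7.7e-04). Of 11 tested base excision genes, 2 were called lower in GL261(B6), Lig3 (-1.05 ± 0.072) and Ung (-1.01 ± 0.15), 3 and 5 in GL261(scid) with CPA/6d and CPA/9d, while at an adjusted p under 0.05 5 fell in B16F10 and 3 in LLC. Parp1 fell in B16F10 by less than 2-fold (-0.69 ± 0.088). Of 12 nucleotide excision genes, 6 fell and 1 rose in GL261(B6), 2 fell and 1 rose in B16F10 and 2 fell and 1 rose in LLC at an adjusted p under 0.05. Of all genes tested, 34.7% fell and 35.9% rose in GL261(B6), 22.2% and 22.9% in B16F10 and 13.2% and 14.5% in LLC.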
